A study of Mus musculus with 15 samples.

Results

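Resting dendritic cells (DCs) were compared with resting fibroblasts at 13559 of 25881 annotated mouse promoters, those with a coverage score above 100, to find promoters that had a nucleosome-depleted region (NDR) or phased nucleosomes in 1 cell-type but not in the other. These promoters belonged to 11913 genes, where a transcript without a gene symbol counts as a gene of its own. A symbol was available for 13277 of the promoters. The comparison rested on 2 of the 15 samples of the series, a non-stimulated set of each cell-type that pooled 2 replicates, so neither set carried a replicate error. The DCs had been differentiated in vitro with GM-CSF from bone-marrow progenitor lines, and the fibroblasts were 3T3 cells, an immortalised line. Neither set had been treated or carried a knockdown. A further 10 libraries served as checks. A pooled set of DCs had received LPS (100 ng/ml) for 1 h, and a pooled set of fibroblasts had received TNF-α (5 ng/ml) for 1 h. The other 8 were single libraries of control fibroblasts or of fibroblasts with a stable shRNA knockdown of the ATPases of the BAF remodelling complex, Brm and Brg1, each non-stimulated or TNF-α-stimulated with 2 replicates.

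All 12 libraries were made by ChIP-MNase, in which chromatin bearing the histone mark H3K4me1 is immunoprecipitated in long pieces and then digested with micrococcal nuclease to single nucleosomes. A nucleosome protects its DNA from the nuclease, so that the density of fragments follows nucleosome occupancy. Promoters of transcribed genes typically have an NDR just upstream of the transcription start site (TSS), where transcription factors and the initiation machinery bind, and a row of regularly spaced (phased) nucleosomes downstream of it. Lineage factors open such regions in some cell-types and not in others, and DCs and fibroblasts belong to unrelated lineages, haematopoietic and mesenchymal.

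Each deposited value is an occupancy in a 10 bp bin relative to the surrounding 1 kb, from -1000 to 1000 bp of the TSS. The depth of depletion is given as an NDR ratio, with mean occupancy between -150 and 0 bp as numerator and mean occupancy between -1000 and -500 bp as denominator. A promoter was called NDR in DCs only where the ratio was at most 0.5 in DCs and at least 0.8 in fibroblasts, and NDR in fibroblasts only in the converse case. With 1 set per cell-type these calls go by size alone and have no test. The values are not counts and do not give the reads behind a promoter. In their place, 82.0% to 90.2% of bins held signal in the 4 pooled sets and 63.6% to 78.1% in the single libraries. The sets are bulk measurements, so an NDR in fewer cells cannot be told apart from a shallower NDR in every cell, nor fewer expressing cells from less RNA per cell.

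The labelled cell-types were checked on the expression values that accompany the promoters, given as multiples of the mean over all promoters within each cell-type. The 17 DC markers summed to 214 times the mean in DCs and to 0.0605 times the mean in fibroblasts, where Cd86, Flt3 and Tyrobp were listed at 0. The 15 fibroblast markers summed to 12.5 times the mean in DCs, nearly all of it from Fn1 (12.2 times the mean), and to 74.97 times in fibroblasts. Pdgfra and Twist1 were listed at 0 in DCs. Markers of T and B cells, epithelium and endothelium, 17 genes, summed to 0.376 and 0.0337 times the mean. These values come from published RNA-seq of each cell-type, not from the cultures used here.

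The windows from -150 to -1 bp of 9 promoters are printed here, in mm9, 5′ to 3′ along the direction of transcription, because the results below turn on them. All 9 had the same call in the non-stimulated and in the stimulated sets, and none of these windows overlaps an annotated exon. The first 3, called NDR in DCs only, show the letters GAGGAAGT, in capitals on either strand, which are the core that the haematopoietic ETS factor PU.1 binds. Dennd1c encodes a Rab exchange factor.
Dennd1c (chr17:57217934-57218083, minus strand): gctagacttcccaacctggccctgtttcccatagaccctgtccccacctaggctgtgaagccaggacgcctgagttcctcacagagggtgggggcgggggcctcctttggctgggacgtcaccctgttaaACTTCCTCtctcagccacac
Gm5547 (chr3:105618335-105618484, plus strand): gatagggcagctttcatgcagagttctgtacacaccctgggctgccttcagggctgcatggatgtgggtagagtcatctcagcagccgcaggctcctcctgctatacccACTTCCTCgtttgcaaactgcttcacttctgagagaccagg
1810006J02Rik (chr1:100027894-100028043, plus strand): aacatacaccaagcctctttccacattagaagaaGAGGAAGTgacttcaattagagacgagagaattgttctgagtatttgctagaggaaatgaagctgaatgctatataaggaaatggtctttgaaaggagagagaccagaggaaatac

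Ptprc, Nlrp3 and Fyb, also called NDR in DCs only, are members of the leukocyte gene lists without these letters. Capitals mark the NF-κB letters GGGNNTTCC in Nlrp3, present in 3.86% of all promoters compared, and the NF-Y letters CCAAT in Fyb, present in 26.4%. Ptprc held none of the 14 motifs searched.
Ptprc (chr1:140071883-140072032, minus strand): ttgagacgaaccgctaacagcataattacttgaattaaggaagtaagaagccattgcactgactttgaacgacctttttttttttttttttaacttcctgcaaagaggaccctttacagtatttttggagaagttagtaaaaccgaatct
Nlrp3 (chr11:59356038-59356187, plus strand): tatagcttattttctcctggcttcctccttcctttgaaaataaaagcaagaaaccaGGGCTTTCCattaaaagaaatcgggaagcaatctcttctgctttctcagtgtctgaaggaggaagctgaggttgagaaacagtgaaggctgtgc
Fyb (chr15:6529721-6529870, plus strand): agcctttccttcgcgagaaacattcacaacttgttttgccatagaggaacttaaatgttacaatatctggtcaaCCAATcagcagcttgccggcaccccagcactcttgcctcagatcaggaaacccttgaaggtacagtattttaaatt

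Cnn3, Msx1 and an upstream promoter of Ciita were called NDR in fibroblasts only. Capitals mark CCAAT letters in Cnn3 and Msx1, the GC box letters GGGCGG in Msx1, present in 42.4% of all promoters, and the TEAD letters GGAATG in Ciita, present in 6.53%. Each motif was searched on both strands.
Cnn3 (chr3:121129309-121129458, plus strand): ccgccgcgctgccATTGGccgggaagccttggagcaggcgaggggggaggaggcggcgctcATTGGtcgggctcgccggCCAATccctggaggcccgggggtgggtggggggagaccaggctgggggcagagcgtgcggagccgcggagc
Msx1 (chr5:38215825-38215974, minus strand): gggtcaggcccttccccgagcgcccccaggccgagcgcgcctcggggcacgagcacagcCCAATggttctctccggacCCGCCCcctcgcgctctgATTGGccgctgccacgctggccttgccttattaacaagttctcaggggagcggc
Ciita (chr16:10480015-10480164, plus strand): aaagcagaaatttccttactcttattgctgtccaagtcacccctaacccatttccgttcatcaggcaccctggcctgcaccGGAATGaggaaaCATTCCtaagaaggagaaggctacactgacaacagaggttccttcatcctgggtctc

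An NDR was found in both sets at 3579 promoters and in neither at 3262, while 4706 had a ratio between the limits in at least 1 set and 31 had no signal in the flank of at least 1 set. An NDR in DCs only was called at 958 promoters of 918 genes (7.07%), and an NDR in fibroblasts only at 1023 promoters of 992 genes (7.54%). DC-only promoters had a median ratio of 0.297 in DCs and 1.08 in fibroblasts. Fibroblast-only promoters had medians of 0.260 in fibroblasts and 1.07 in DCs. The limits passed through a continuous distribution. Of the DC calls, 120 had a ratio from 0.45 to 0.5 in DCs and 197 a ratio from 0.8 to 0.9 in fibroblasts, and a further 377 promoters lay just outside the limits. The corresponding fibroblast counts were 152, 228 and 459.

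Promoters called in 1 set only were almost as frequent between sets of the same cell-type. The 2 resting sets differed in this sense at 1981 promoters (14.6%), and the 2 stimulated sets at 2175 (16.0%). Between non-stimulated and stimulated DCs the same rule called 1708 promoters (12.6%), and between the corresponding fibroblast sets it called 1815 (13.4%). The 2 replicates of non-stimulated control fibroblasts, which are single and sparser libraries, differed at 3317 promoters (24.5%). Of the promoters with a ratio of at most 0.5 in either set, 47.7% had one in both resting cell-types, 52.2% in both DC sets and 54.0% in both fibroblast sets. Across the promoters, log2 ratios correlated at 0.453 between resting DCs and resting fibroblasts, 0.488 between the DC sets and 0.544 between the fibroblast sets. The share of one-sided calls was 7.58% for DCs and 8.59% for fibroblasts at scores from 100 to 150, and 6.61% and 6.40% at scores above 300.

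**Figure D1:**
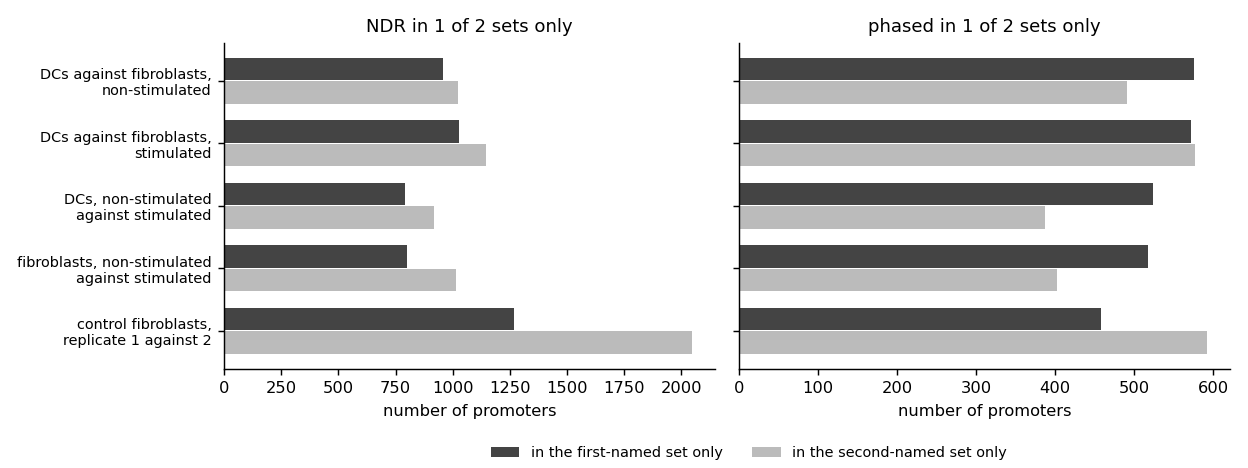
Number of promoters (x axis) with an NDR, left, or with phased nucleosomes, right, in 1 of 2 sets only, for 5 pairs of sets (y axis). Dark bars count promoters called in the first-named set only and light bars those called in the second-named set only. The pair of resting cell-types gave 958 and 1023 NDR promoters, compared with 790 and 918 for the 2 DC sets.

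Libraries that took no part in the calls leaned the same way. In the stimulated sets, the ratio was lower in DCs than in fibroblasts at 558 of the 958 promoters called NDR in DCs only (58.2%), at 410 of the 1023 called in fibroblasts only (40.1%) and at 46.6% of all promoters. The rule applied to the stimulated sets called 1029 promoters (7.59%) in DCs only and 1146 (8.45%) in fibroblasts only. It returned the same call for 161 of the DC promoters (16.8%) and for 163 of the fibroblast promoters (15.9%), and the opposite call for 67 (6.99%) and 77 (7.53%). The stimulated DC ratio lay below all 9 fibroblast libraries other than the resting set at 140 DC-only promoters (14.6%), compared with 850 of all promoters (6.27%). It lay above all 9 at 96 fibroblast-only promoters (9.38%), compared with 1039 of all (7.66%). The stimulated DCs had received LPS, whose effect cannot be told apart from cell-type here beyond what TNF-α did in fibroblasts.

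Fits of the log2 ratio across libraries with limma gave no promoter that passed adjustment. With all 12 libraries, 2 of DCs and 10 of fibroblasts, 0 of 13559 promoters (0%) had a Benjamini-Hochberg adjusted p below 0.05, the smallest being 0.282, while 214 were lower and 268 higher in DCs at an unadjusted p below 0.05. The fitted difference is the mean of the resting and the stimulated pooled difference, since a term for pooled or single libraries takes up the level of the 8 single ones, which supply only the spread. For a called promoter it therefore includes the resting values that made the call. Without the resting sets, the fitted difference is that of the 2 stimulated sets alone and repeats the comparison above, scaled by the spread of the single libraries. It gave 0 calls, with a smallest adjusted p of 0.446, and 276 promoters (2.04%) lower and 301 (2.22%) higher in DCs at an unadjusted p below 0.05. Of the DC-only promoters, 44 (4.59%) were among those lower and 17 (1.77%) among those higher. Of the fibroblast-only promoters, 40 (3.91%) were among those higher and 12 (1.17%) among those lower. The median fitted difference, DCs minus fibroblasts, was -0.20 over DC-only promoters, 0.29 over fibroblast-only promoters and 0.08 over all.

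Leukocyte signalling genes had the highest share of DC-only NDRs among the 10 lists under these limits, although surface markers stood higher under some alternatives (29.4% against 24.4% with a window from -200 to 50 bp). They relay signals from antigen, Fc and adhesion receptors to actin and the plasma membrane. Of its 45 promoters, 15 (33.3%) had an NDR in DCs only and 3 (6.67%) in fibroblasts only. The 15 included the Src-family kinase Lyn, the phosphatase Ptpn6 (SHP-1), the exchange factors Vav1, Dock2 and Cyth4, the actin regulators Was, Hcls1, Lcp1 and Nckap1l, the adaptors Fyb and Sla, the GTPase-activating proteins Arhgap9 and Arhgap30, and Rgs1 and Gpsm3. Of them, 9 had the same call in the stimulated sets. In the stimulated sets, which made no call, 34 of the 45 had a lower ratio in DCs than in fibroblasts, with a median difference of -0.69 on the log2 scale compared with 0.08 over all promoters. The mean profile of the 45 promoters had a ratio of 0.614 in resting and 0.564 in stimulated DCs, and of 0.848 to 0.991 in the 10 fibroblast libraries. No fibroblast library reached the DC values. Bins with signal amounted to a median of 96.5% in DCs and 94.5% in fibroblasts at these promoters, compared with 93% and 89.5% over all. Relative expression was higher in DCs for 43 of the 45, and for 72.1% of all promoters with expression. The share in DCs only was 17.8% with stricter limits of 0.4 and 1.0, where it was 3.20% of all promoters, and 20% with the mean of both control replicates in place of the pooled fibroblasts, where it was 9.73% of all.

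**Figure D2:**
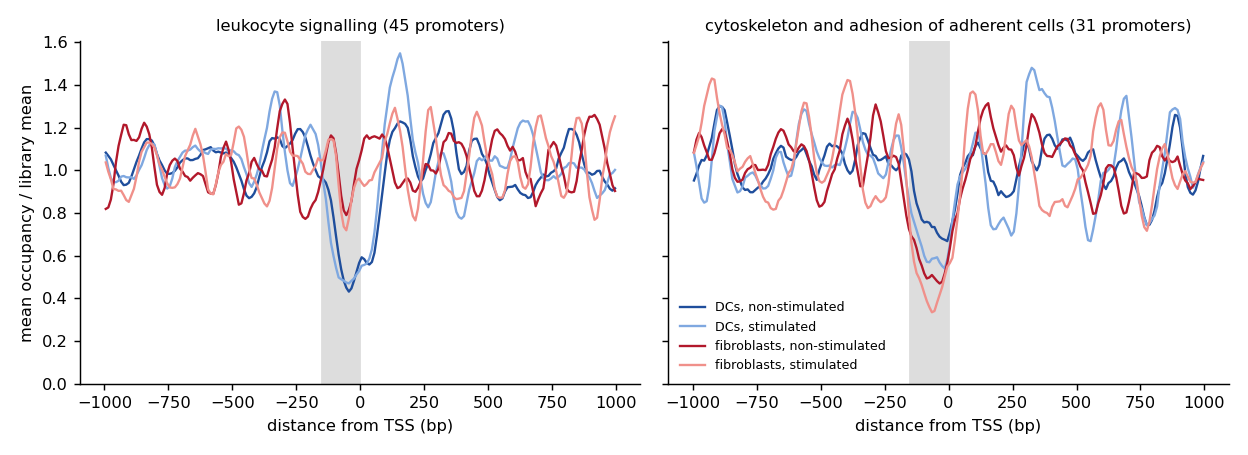
Mean occupancy divided by the library mean (y axis) against the distance from the TSS in bp (x axis) for the 45 leukocyte signalling promoters, left, and the 31 cytoskeleton and adhesion promoters, right, in the 4 pooled sets. The grey band marks the window from -150 to 0 bp, in which both DC sets (blue) run below both fibroblast sets (red) on the left and above them on the right.

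Individual members showed how far this held across libraries. Nckap1l, a haematopoietic subunit of the WAVE actin-nucleating complex, had a ratio of 0.0211 in resting and 0 in stimulated DCs. In the 10 fibroblast libraries its ratio ranged from 0.498 to 1.67 with a median of 0.892. Both DC sets thus lay below every fibroblast library. Such statements include the resting sets that made the calls. Lyn, which phosphorylates receptor motifs at the start of signalling, had ratios of 0.0275 and 0.0335 in the DC sets and of 0.0856 to 3.47 in fibroblasts. The DC sets again lay below all fibroblast libraries, although 1 BAF-knockdown library came close, at 0.0856. Fyb, an adaptor that links receptors to integrins, had ratios of 0.473 and 0.304 in DCs and of 0.834 to 1.96 in fibroblasts, with no overlap. Arhgap30 likewise did not overlap, at 0.2002 and 0.224 in DCs and 0.372 to 1.73 in fibroblasts. For Hcls1, Lcp1, Arhgap9, Dock2, Cyth4, Was and Rgs1 the lowest fibroblast library reached or passed a DC value. The other called members are not shown singly here. Over all promoters, the stimulated DC ratio lay below the 9 fibroblast libraries other than the resting set at 6.27%. The share with both DC sets below all 10 fibroblast libraries was not computed.

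**Figure D3:**
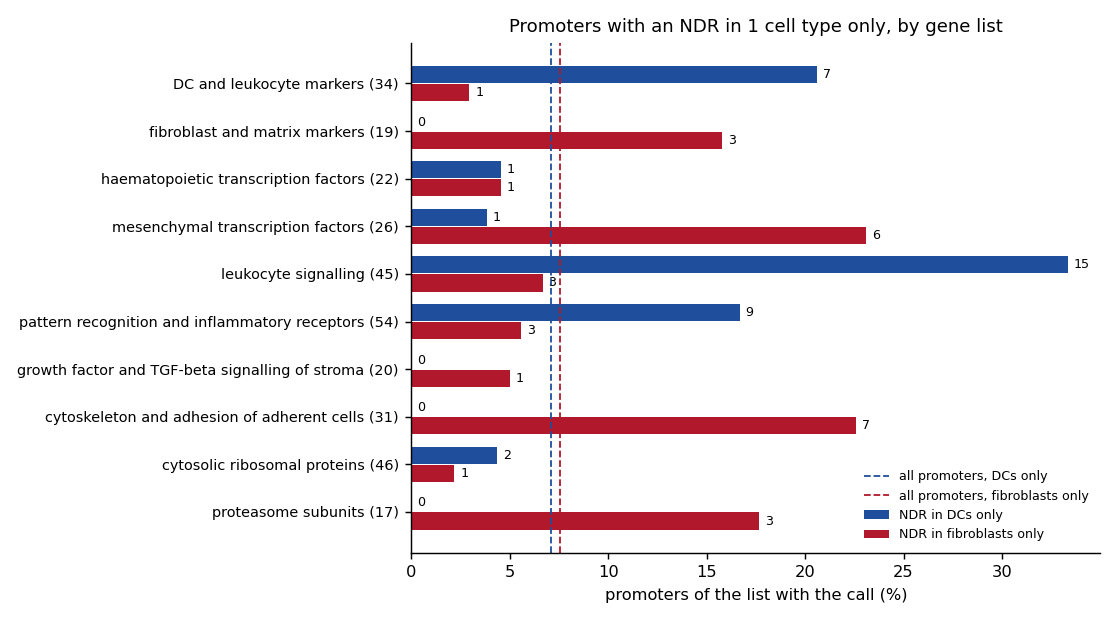
Share of the promoters of each gene list (y axis, number of promoters in brackets) that had an NDR in DCs only (blue) or in fibroblasts only (red), in percent (x axis), with the number of promoters beside each bar. Dashed lines mark the shares over all promoters, 7.07% and 7.54%. Leukocyte signalling had the highest DC share, at 33.3%.

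Surface markers of DCs and leukocytes went in the same direction. Of 34 promoters, 7 (20.6%) had an NDR in DCs only and 1 (2.94%), Ciita, in fibroblasts only. The 7 were those of Ptprc (CD45, the leukocyte tyrosine phosphatase), Cd86 (a costimulatory ligand), Tyrobp (the adaptor DAP12 of activating myeloid receptors), Cd52, Adgre1 (a macrophage adhesion receptor), and the receptors Clec4n (dectin-2) and Fcgr2b. The mean profile had a ratio of 0.553 and 0.569 in the DC sets and of 0.790 to 1.01 in fibroblasts, without overlap, and 25 of 34 promoters were lower in DCs in the stimulated sets (median log2 difference -0.35). Bins with signal amounted to a median of 98.5% in DCs and 90.8% in fibroblasts. At Ptprc, whose window is printed above, the ratio was 0 in resting and 0.323 in stimulated DCs. In fibroblasts it ranged from 0.577 to 2.36 with a median of 1.34, above both DC sets. At Tyrobp it was 0.0445 and 0.170 in DCs, 1.45 and 1.46 in the pooled fibroblast sets, and 0 to 1.45 in the single fibroblast libraries, so the groups overlapped.

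Not all DC markers had this pattern. Itgax (CD11c), Csf1r and Cd74, all highly expressed in DCs, had an NDR in neither set, with DC ratios of 1.09, 1.45 and 1.10. The class II genes H2-Aa and H2-Eb1 had DC ratios of 0.608 and 0.742. H2-Ab1 was depleted in DCs, at 0.220, but stood at 0.682 in fibroblasts and missed the upper limit. Spi1, which encodes PU.1, was depleted in both, at 0.0357 in DCs and 0.335 in fibroblasts. Irf8, another DC lineage factor, stood at 0.730 in DCs and 0.155 in resting fibroblasts, and its 10 fibroblast ratios ran from 0 to 1.43 around both DC values. Over the 22 promoters of haematopoietic transcription factors, 1 was called in each direction, Runx1 in DCs only and Batf3 in fibroblasts only.

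Ciita, the transactivator of class II genes, went against its expression. At an upstream TSS of the gene (chr16:10480165, window printed above) the ratio was 1.36 and 1.88 in DCs and 0.0769 and 0.387 in the resting and stimulated fibroblast sets. The single fibroblast libraries ranged from 0 to 3.02, and the median over all 10 fibroblast libraries was 1.35, so the groups overlapped. Expression at this TSS was 0.627 times the mean in DCs and 4.05e-10 times in fibroblasts. A downstream TSS of the gene had ratios of 0.330 in DCs and 0.552 in fibroblasts and was not called.

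Genes of pattern recognition and inflammation, through which DCs sense microbes, gave 9 DC-only NDRs, of 8 genes, among 54 promoters (16.7%) and 3 fibroblast-only NDRs (5.56%). The DC-only group held the sensors Nlrp3, Naip2, Naip5 and Tlr3, the cytokines Tnf and Ccl22, the interleukin-1 antagonist Il1rn and the purinergic receptor P2ry13. The fibroblast-only group included the complement receptor C5ar1 and the adaptor Myd88. At Nlrp3, the sensor of the NLRP3 inflammasome, the ratio was 0.219 and 0.122 in DCs. It was 0.815 to 1.71 in fibroblasts with a median of 0.989, and the groups did not overlap. P2ry13 was separated too, at 0.312 and 0.476 in DCs and 0.807 to 1.82 in fibroblasts. The mean profile of the 54 had a ratio of 0.689 and 0.609 in DCs and of 0.758 to 1.07 in fibroblasts. With limits of 0.4 and 1.0 the DC-only share was 5.56%, compared with 3.20% of all promoters. Bins with signal amounted to a median of 99.5% in DCs and 94% in fibroblasts.

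**Figure D4:**
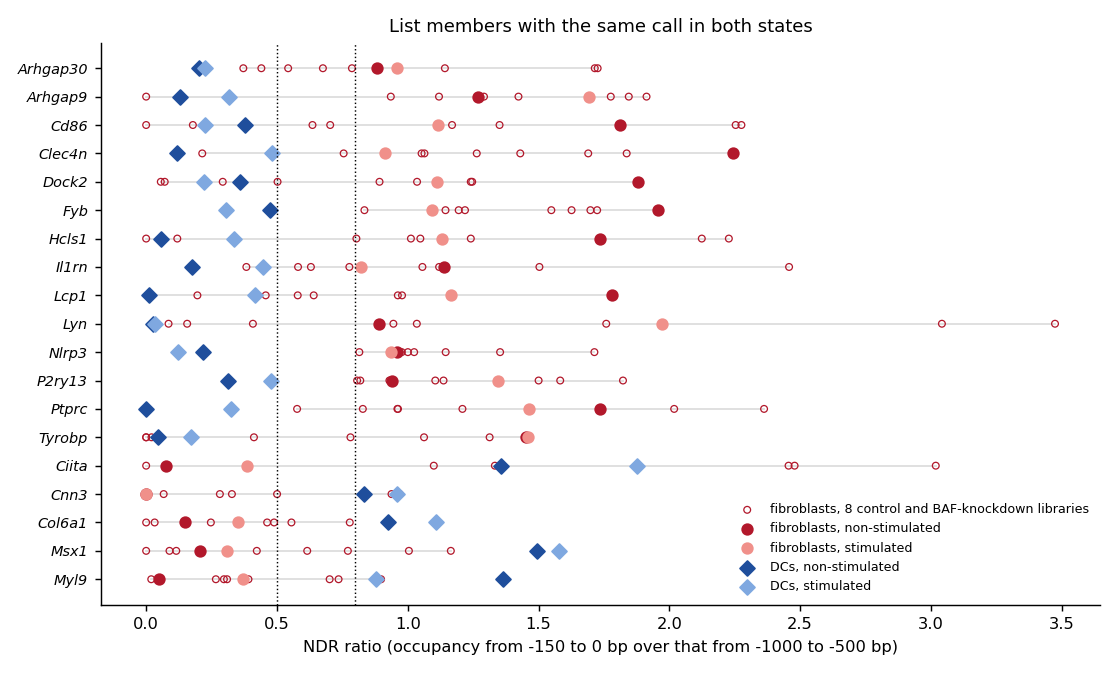
NDR ratio (x axis) of 19 of the list members with the same call in the non-stimulated and stimulated sets, those among the 25 called list genes per direction with the largest differences (y axis), in 2 DC sets (diamonds), 2 pooled fibroblast sets (filled circles) and 8 single fibroblast libraries (open circles). Dotted lines mark 0.5 and 0.8. The DC diamonds lie left of every fibroblast point for Arhgap30, Fyb, Lyn, Nlrp3, P2ry13 and Ptprc, and right of every one for Col6a1 and Msx1.

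Fibroblast-only NDRs appeared among genes of the contractile and adhesive cytoskeleton. Of 31 promoters, 7 (22.6%) had an NDR in fibroblasts only and 0 in DCs only. The share was 6.45% with limits of 0.4 and 1.0, compared with 3.37% of all promoters. At scores above 200 it was 1 of 13 (7.69%), near the 6.75% of all promoters. The 7 belonged to Myl9 (myosin light chain), Tpm1 (tropomyosin), Cnn3 (calponin), Flna (filamin), Pxn (paxillin, of focal adhesions), Cavin1 (caveolae) and Filip1l. The mean profiles overlapped, however. Their ratio was 0.729 and 0.597 in DCs, 0.511 and 0.422 in the pooled fibroblast sets and up to 0.828 in single libraries. In the stimulated sets, 10 of 31 were lower in DCs and the median log2 difference was 0.35. At Cnn3, whose window is printed above, the ratio was 0.831 and 0.961 in DCs, 0 in both pooled fibroblast sets and 0 to 0.970 in the single libraries. One single library, a control at 0.970, exceeded both DC values. At Myl9 it was 1.36 and 0.877 in DCs and 0.0195 to 0.898 in fibroblasts, so that the highest fibroblast library passed the stimulated DCs.

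Matrix genes and mesenchymal transcription factors also held fibroblast-only NDRs. Of 19 promoters of fibroblast and matrix markers, 3 (15.8%) had an NDR in fibroblasts only, those of Col4a1, Col6a1 and Pdgfra, and 0 in DCs only. None of the 19, a share of 0%, was called with limits of 0.4 and 1.0, compared with 3.37% of all promoters. Col6a1, a chain of collagen VI, had ratios of 0.923 and 1.11 in DCs and of 0 to 0.778 in fibroblasts, with no overlap. Col1a1, the most abundant fibrillar collagen chain, stood at 0.569 in DCs and 0.655 in fibroblasts and was not called, and Fn1 had an NDR in neither resting set. Of 26 promoters of mesenchymal transcription factors, 6 (23.1%) were called in fibroblasts only, those of Foxc1, Foxc2, Hoxa9, Msx1, Runx2 and Tead3, and 1 in DCs only, that of Zeb1. With a window from -200 to 50 bp the fibroblast-only share was 11.5%, compared with 5.37% of all promoters. Msx1 had ratios of 1.49 and 1.58 in DCs, above all fibroblast libraries, which ran from 0 to 1.16, although its expression was listed at 0 in both cell-types. The mean profile of the 26 had a ratio of 1.04 and 1.10 in DCs and of 0.655 to 0.995 in the 10 fibroblast libraries. Its DC values lay above all of them. Over 20 promoters of growth factor and TGF-β signalling, 1 was called, Mdk, in fibroblasts only. Such calls were not limited to mesenchymal genes. Of 10 promoters of the T cell, B cell, epithelial and endothelial markers, 4 were called in fibroblasts only and 0 in DCs only. The 4 were those of Cd4, Cd79a, Cdh1 and Lck, with expression of at most 0.0051 times the mean in fibroblasts. Of them, only Cd4 kept its call in the stimulated sets.

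Housekeeping lists gave a reference. Of 46 promoters of cytosolic ribosomal proteins, 26 had an NDR in both sets, 2 in DCs only (Rpl32 and Rps9) and 1 in fibroblasts only (Rpl28). Of 17 proteasome promoters, 9 had an NDR in both and 3 (17.6%) in fibroblasts only, Psmb4, Psmd1 and Psmd12. None of these 6 kept its call in the stimulated sets. Bins with signal amounted to a median of 88% in DCs and 78.8% in fibroblasts over the ribosomal promoters.

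The promoters with the largest differences were mostly outside the lists. They were taken from the 364 DC-only and 368 fibroblast-only promoters whose difference, on the log2 scale with its pseudocount, had the same direction in the stimulated sets and against both replicates of non-stimulated control fibroblasts. For DCs they were Cypt4, Etl4, Mettl25, Mir467a-1, Mir467a-10, Mir467d, the non-coding transcript NR_024327, Ptprc, Rbm41 and Ska2. For fibroblasts they were Cdc45, Dazap2, Fbxo38, Fiz1, G3bp1, Hnrnpf, Hspa2, Mir471, Pcbp1 and Tor1aip2. At Ska2, Hnrnpf and Tor1aip2 the ratio was 0 in both stimulated sets, so the direction there came from the pseudocount alone. The same held for resting DCs against both control replicates at Ska2, where all these ratios were 0. Ska2 thus had no measured difference outside the resting pair. Ratios were likewise both 0 against control replicate 2 at Mettl25 and against control replicate 1 at Rbm41. All but Hspa2 had a ratio of 0 in the depleted set, where the window held no signal. At Pcbp1, an RNA-binding protein, the ratio was 4.63 and 1.55 in DCs and 0 to 1.29 in fibroblasts. At Fbxo38, an F-box protein, it was 1.93 and 1.41 in DCs and 0 to 0.710 in fibroblasts. Neither gene overlapped between the cell-types, but their selection by size and direction fixed part of this separation in advance. Over all promoters, the stimulated DC ratio lay above the 9 fibroblast libraries other than the resting set at 7.66%. Both genes were expressed in both cell-types. The smallest adjusted p over all promoters, 0.282 with a fitted log2 difference of -4.27, fell on Mir467a-1. It lies in a cluster of near-identical microRNA copies on chromosome 2, so its value is uncertain. Only 2 of the 10 fibroblast libraries, the pooled sets, held flanking signal there. Single libraries without signal enter the fit at a log2 ratio of 0 and add no measured spread, so this p-value carries little weight.

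Promoters called alike in the resting and in the stimulated sets numbered 161 (1.19%) for DCs and 163 (1.20%) for fibroblasts. List members made up 9.94% of the former and 3.07% of the latter. Among the DC promoters, genes chosen after their values were seen include several myeloid receptors. Cd33, an inhibitory lectin of the Siglec family, had ratios of 0.139 and 0.158 in DCs and 1.77 and 2.32 in fibroblasts. Siglec1 (sialoadhesin) had 0.222 and 0.334 in DCs and 1.31 and 1.22 in fibroblasts. Cd72, Cd300ld, Clec4a3, Clec5a, Lilra6, Lilrb4a, Slamf9 and Gpr65 had the same pattern, with DC ratios between 0.105 and 0.491 and fibroblast ratios between 0.828 and 2.37. Plek (pleckstrin, a haematopoietic protein kinase C substrate) had 0.190 and 0 in DCs and 1.46 and 1.21 in fibroblasts. Lilra6 belongs to a cluster of near-identical receptor genes on chromosome 7, and its counts are uncertain. Among the fibroblast promoters, likewise chosen, were the patterning genes Irx5, Hoxd8 and Tbx4, the collagen-processing enhancer Pcolce and the small GTPase Rhoc. Irx5 had 0.0330 and 0 in fibroblasts and 0.906 and 0.956 in DCs, and Hoxd8 had 0 in both fibroblast sets and 1.08 and 0.882 in DCs.

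Phased nucleosomes were scored separately from the NDR, as Pearson's r over the 100 bins from 0 to 1000 bp between a promoter and the mean profile of expressed promoters of that cell-type. A promoter was called phased in 1 cell-type where r was at least 0.5 there and at most 0.2 in the other. The rule called 576 promoters (4.25%) in DCs only, 491 (3.62%) in fibroblasts only and 720 in both. Of the DC calls, 170 had r from 0.5 to 0.55, and 304 promoters lay just outside the limits. In fibroblasts these numbers were 141 and 286. As for the NDR, sets of the same cell-type differed nearly as often, at 911 promoters between the DC sets and 920 between the fibroblast sets, compared with 1067 between the resting cell-types. In the stimulated sets the rule called 572 of all 13559 promoters in DCs only and 577 in fibroblasts only. The same call was returned there at 60 of the 576 DC promoters and at 44 of the 491 fibroblast promoters. Opposite calls were not counted. In the stimulated sets, r was higher in DCs than in fibroblasts at 59.9% of the DC-only promoters, 45.8% of the fibroblast-only promoters and 50.5% of all. With limma on Fisher's z of r over all 12 libraries, 0 of 13552 promoters passed adjustment (smallest adjusted p = 0.180), and 481 were higher and 478 lower in DCs at an unadjusted p below 0.05.

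Phasing and the NDR went together at some promoters. Of the promoters with an NDR in DCs only, 109 (11.4%) were also phased in DCs only and 8 (0.835%) in fibroblasts only, compared with 4.25% and 3.62% of all promoters and with 5.36% and 5.31% of those with an NDR in both. Of those with an NDR in fibroblasts only, 92 (8.99%) were phased in fibroblasts only and 25 (2.44%) in DCs only. Both measures come from the same libraries. Most promoters phased in 1 cell-type had no NDR call in the same direction, since 18.9% of the DC and 18.7% of the fibroblast phasing calls carried it.

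Several leukocyte genes were among those with both calls. At Was, the actin regulator mutated in Wiskott-Aldrich syndrome, r was 0.774 and 0.668 in the DC sets and -0.224 to 0.131 in the 10 fibroblast libraries. At Cd86 it was 0.723 and 0.609 in DCs and -0.562 to 0.229 in fibroblasts, and at Fcgr2b, an inhibitory Fc receptor, 0.650 and 0.703 in DCs and -0.421 to 0.161 in fibroblasts. Tyrobp followed, at 0.548 and 0.681 in DCs and -0.325 to 0.394 in fibroblasts. None of these 4 overlapped between the cell-types, although the resting values among them made the calls. Cd52 and Arhgap9, which also had both calls, did overlap. At Cd52 r was 0.727 and 0.290 in DCs and up to 0.381 in fibroblasts. At Arhgap9 it was 0.517 and 0.329 in DCs and up to 0.478 in fibroblasts. The share of all promoters without such overlap in r was not computed. In the other direction, Col6a1 had r of 0.776 and 0.723 in the pooled fibroblast sets and 0.181 and -0.137 in DCs, while its single fibroblast libraries ranged from -0.099 to 0.532 and overlapped with DCs. The largest differences in r lay at Ankzf1, L3hypdh, P3h1, Tfb2m and Cartpt for DCs and at Agrn, Casp2, Grm4, Pbxip1 and Cutc for fibroblasts. L3hypdh had 0.701 in resting and -0.016 in stimulated DCs, and Cutc had 0.577 in resting and -0.007 in stimulated fibroblasts.

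Expression, measured apart from occupancy, leaned towards the cell-type with the NDR, but few promoters met a strict rule of expression in 1 cell-type and 0 in the other. Of the DC-only NDR promoters, 52 (5.43%) were expressed in DCs and listed at 0 in fibroblasts, compared with 474 of all (3.496%). Of the fibroblast-only NDR promoters, 41 (4.01%) were expressed in fibroblasts and listed at 0 in DCs, compared with 400 of all (2.95%). Expression in both cell-types was found for 38.4% and 41.0%, compared with 40.5% of all. Expressed here means above 0.02 times the mean of the cell-type. A level above 0 but not above this limit in at least 1 cell-type was found for 42.3% and 42.6%, compared with 41.4% of all. This class holds strongly one-sided genes. Clec4n stood at 17.1 times the mean in DCs and 0.000836 times in fibroblasts, and Col6a1 at 0.00629 and 3.08 times. Among promoters with any expression, the relative level was higher in DCs for 76.4% of the DC-only, 69.0% of the fibroblast-only and 72.1% of all promoters.

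Read from expression to occupancy, 52 of the 474 promoters expressed only in DCs (11.0%) had an NDR in DCs only and 30 (6.33%) in fibroblasts only. Over all promoters these calls had shares of 7.07% and 7.54%. The 52 held leukocyte genes, among them Tyrobp, Cd86, Ccl22, Tnf, Ncf4, Msr1, Clec10a and Slamf9, but also Olfr697, Pou5f1 and H2bc1. Leukocyte genes were found among the 30 as well, such as Fgr, Mgl2, Tnfsf13b and Tnfsf14. Of the 400 promoters expressed only in fibroblasts, 41 (10.3%) had an NDR in fibroblasts only, and 31 (7.75%) had one in DCs only, near the share over all. The 41 held Pdgfra, Foxc2, Myl9, Irx5 and Hoxd8, but also Apoc3 and Uroc1. The mean profile of the 474 had a ratio of 0.741 and 0.735 in DCs and of 0.846 to 1.01 in the 10 fibroblast libraries, without overlap. That of the 400 had 0.894 and 0.879 in DCs and 0.787 to 0.908 in fibroblasts, which overlapped.

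The classes differed in their sequence. CpG islands covered the TSS at 52.3% of DC-only and 65.5% of fibroblast-only NDR promoters, compared with 56.2% of all, 85.2% of those with an NDR in both and 29.3% of those with one in neither. Among the promoters called alike in both states the shares were 40.4% and 64.4%. The PU.1 letters GAGGAAGT occurred in the window of 48 of 958 DC-only promoters (5.01%), 16 of 1023 fibroblast-only promoters (1.56%) and 269 of all (1.98%). Among the promoters called alike in both states they occurred in 15 of 161 (9.32%) and in 4 of 163 (2.45%). Read the other way, 17.8% of the 269 promoters with these letters had an NDR in DCs only and 5.95% in fibroblasts only.

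In the mean profile, depletion at promoters holding the PU.1 letters was deeper in both DC sets than in every fibroblast library. By a narrower margin, the same held for the RUNX letters given below. Over all 269, called or not, the mean profile had a ratio of 0.617 in resting and 0.651 in stimulated DCs. In the 10 fibroblast libraries it was 0.709 to 0.867 with a median of 0.788, above both DC values. Over all 13559 promoters the same ratio was 0.687 and 0.667 in DCs and 0.647 to 0.786 in fibroblasts, which overlapped. In the stimulated sets, 56.5% of the 269 were lower in DCs, compared with 46.6% of all. CpG islands were found at 36.1% of the 269, and bins with signal amounted to a median of 96.5% in DCs and 91% in fibroblasts. A match of letters is a description and shows no binding.

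The 15 promoters with these letters and the same call in both states included several of myeloid genes. They were those of Tyrobp, Cd72, Cd300ld, Slamf9, Scimp, Sla, Fgd3, Nlrp1a, Lilra6, Dennd1c, 1110065P20Rik, 1810006J02Rik, Gm5547, Gm9920 and the receptor transcript NM_011094. Scimp, an adaptor of antigen-presenting cells, had ratios of 0.263 and 0.307 in DCs and 1.26 and 1.07 in fibroblasts. Fgd3, a Cdc42 exchange factor, had 0.264 and 0.164 in DCs and 1.08 and 0.820 in fibroblasts. Dennd1c, printed above, had 0.497 and 0.392 in DCs and 1.25 and 2.52 in the pooled fibroblast sets. Its lowest fibroblast library, at 0.438, lay below resting DCs. 1810006J02Rik, also printed, had 0.457 and 0.294 in DCs and 1.23 and 1.69 in the pooled fibroblast sets, but a lowest library of 0.118. Gm5547, a non-coding gene listed at 0 expression in both, had 0.209 and 0.344 in DCs and 1.20 and 1.66 in the pooled fibroblast sets. Its lowest fibroblast library, at 0.732, lay above both DC values. Lilra6 and NM_011094 lie in the cluster of near-identical receptors on chromosome 7, and NM_011094 had a median ratio of 0 over the fibroblast libraries.

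**Figure D5:**
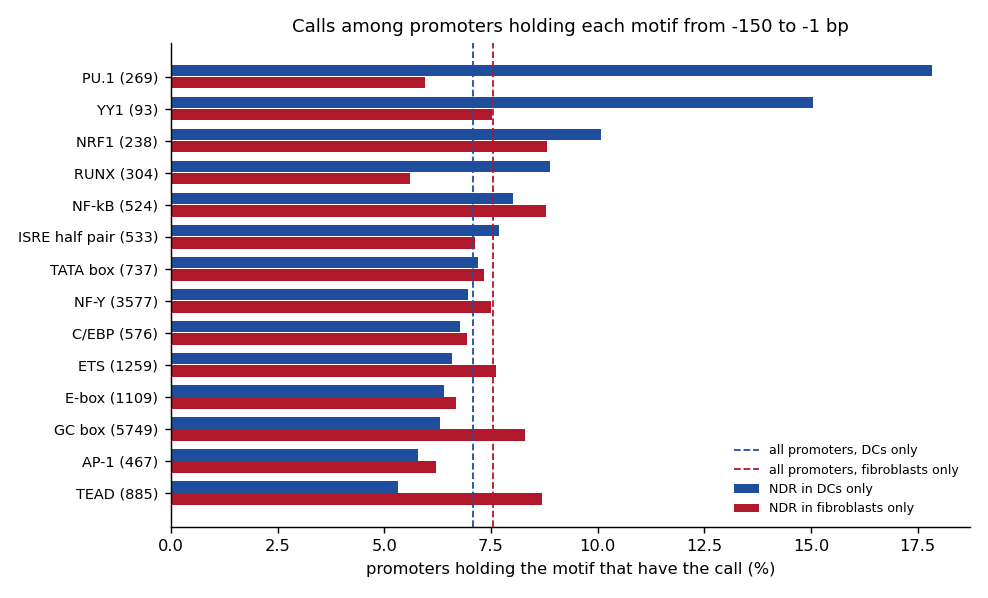
Share of the promoters holding each motif from -150 to -1 bp (y axis, number of promoters in brackets) that had an NDR in DCs only (blue) or in fibroblasts only (red), in percent (x axis). Dashed lines mark the shares over all promoters. PU.1 stands at 17.8% and 5.95%.

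None of the other 13 motifs had a DC-only share as high as that of PU.1. The letters AAGATGGCG of YY1 were rare, and of the 93 promoters holding them 14 (15.1%) had an NDR in DCs only and 7 (7.53%) in fibroblasts only. Their mean profile had 0.429 and 0.354 in DCs and 0.326 to 0.661 in fibroblasts, which overlapped. The RUNX letters TGTGGTT gave 8.88% and 5.59%. Over the 304 promoters holding them, the mean profile had 0.717 and 0.747 in DCs and 0.759 to 0.867 in fibroblasts, without overlap. In the stimulated sets, however, 48.7% of the 304 were lower in DCs, near the 46.6% of all. The TEAD letters GGAATG gave 5.31% and 8.70%, and the GC box 6.30% and 8.30%. The generic ETS letters CCGGAAG, which many ETS factors bind, gave 6.59% and 7.63%, near the background.

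A gene could hold calls of opposite direction. Of 1296 genes with 2 or more high-coverage promoters, 23 had an NDR in DCs only at 1 promoter and in fibroblasts only at another. Over all promoters the 2 calls had shares of 7.07% and 7.54%. How many genes would hold both at these shares was not computed, so the count is not read as an excess. Arhgef2, a microtubule-bound exchange factor, had ratios of 0.867 and 0.981 in DCs and 0.245 and 0 in fibroblasts at its upstream TSS, and 0.239 and 0.428 in DCs and 1.13 and 0.545 in fibroblasts at a downstream one. Sh3bp2, an adaptor of Src and Syk signalling, had 0.135 and 0.146 in DCs and 1.13 and 0.846 in fibroblasts at 1 TSS. At the other, its ratios were 1.29 and 0.741 in DCs and 0.0354 and 0.651 in fibroblasts. Bcl11a, a haematopoietic repressor, was called in DCs only at 1 TSS in both states (0.242 and 0.259 compared with 1.37 and 1.02). Its other call did not hold in the stimulated sets.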

How the data were processed

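H3K4me1 ChIP-MNase was measured in 12 libraries of mouse DCs and fibroblasts. Reads were aligned to mm9 with bowtie (the submitters' processing notes list Bowtie2, version 2, and bedtools), and the authors normalised occupancy to the surrounding 1 kb and averaged it in overlapping 50 bp bins, given every 10 bp. Pooled sets sum 2 replicates. The normalisation to the surrounding 1 kb removes differences in overall occupancy between promoters. The deposited signal holds no read counts, so no counting interval is given. The study states mean promoter coverage, higher for DCs than for fibroblasts, which was not used here. The coverage score and the expression scores were deposited by the authors in the promoter annotation. Expression scales differ between cell-types and were compared only as multiples of each mean. The annotation also holds the authors' expression differences upon stimulation, which were not used, and pol-II libraries were not used here.

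Ratios and r were computed from the matrices as described, with Python 3.11.15, numpy 2.4.6 and pandas 2.3.3. For limma 3.58.1 (R 4.3.3), the log2 ratio had 0.1 times the library mean added to both terms, with stimulation, BAF knockdown and pooled or single library as covariates, so that its spread comes largely from fibroblast libraries and, with the resting sets left out, the lone DC set is assumed to vary like them. A single library without signal at a promoter thereby gets a log2 ratio of 0, which affected 173 to 198 promoters per single library. The study describes its replicates as independent samples, and p-values measure the spread between these libraries. The fit was tested on simulated data. TSSs were placed from the annotation, and sequence, exons and CpG islands (GC above 50%, observed to expected CpG above 0.6, TSS ± 200 bp) were read from the NCBIM37 (mm9) genome with GENCODE vM1.

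Named genes were the 10 largest differences per direction among calls whose direction was the same in the stimulated sets and against both control replicates, called members of 10 gene lists (up to 25 genes per direction by size for single values, all called members by name), the 5 largest differences in r under the same condition, and cell-type markers. Members, lists and motifs were chosen with earlier results of these data known, and any other gene named was chosen after its values were seen. Shares, thresholds, filters, windows, templates, pseudocounts and left-out libraries were varied. Some items are not reported here.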

Additional observations from a re-analysis of the deposited data

How the results depend on the processing

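Counts of one-sided promoters depended on the limits. NDR calls for DCs and fibroblasts numbered 434 and 457 with limits of 0.4 and 1.0, 445 and 460 at scores above 200 (6.53% and 6.75% of 6812 promoters), 1467 and 1666 with 1 limit of 0.5 and a 2-fold difference, and 161 and 163 where both states were required. This last setting, like the pairs of sets within a cell-type and the profiles by motif, was chosen after seeing the data. With 1 limit and a 2-fold difference, DC and leukocyte markers gave a DC-only share of 41.2% (10.8% of all promoters), and with the mean of both control replicates in place of the pooled fibroblasts 32.4% (9.73% of all). Matrix markers had a fibroblast-only share of 5.26% with a window from -200 to 50 bp. Phasing calls numbered 187 and 152 with limits of 0.6 and 0.1, 869 and 743 over bins from 100 to 800 bp, 273 and 243 at scores above 200, and 60 and 44 in both states. Fewer tested promoters or stricter limits lower these counts by construction, and for the shorter bins the cause was not tested. Promoters expressed in the same cell-type alone numbered 25 for DCs and 22 for fibroblasts with the stricter NDR limits, and 23 for fibroblasts at an expression limit of 0.1 times the mean. The limma fit over 12 libraries called 1 promoter lower and 5 higher in DCs with a pseudocount of 0.02 times the mean, and 2 lower and 7 higher with a window from -200 to 50 bp (the cause was not tested). Leaving out each library in turn gave 0 calls for the ratio and for r throughout. With the replicate number as a block it called 0 promoters for the ratio, for the ratio without the resting sets and for r. Deviations of same-numbered libraries correlated from -0.0075 to 0.0211 across promoters. This does not decide whether the numbers pair the samples, since a correlation across promoters leaves out any shift of a whole library. Bins with signal amounted to 73.4% to 78.1% in the single libraries numbered 1 and to 63.6% to 69.7% in those numbered 2. The deposited values are not counts, so what depth limits at a single promoter was not computed.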
